A study of Verbena bonariensis with 6 samples.

Results

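TCP proteins are plant-specific transcription factors that control cell division and organ growth. The values of 95 gene clusters of this family were taken from a table of 8147 clusters of transcription factors and other regulators in roots of Verbena bonariensis, an ornamental garden plant. A cluster belongs here if the deposited table gives TCP as its family, a choice that used no expression value. Of the 95 clusters, 54 passed the filter on low counts and were tested, and 41 were not tested, of which 8 had no count in any library.

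The plants were of the cultivar Finesse and 2 months old. Roots of 3 control libraries came from soil to which no cadmium was added, and roots of 3 cadmium libraries from soil that held the toxic metal cadmium at 100 mg/kg, harvested after 20 days. The libraries are called biological replicates in the labels, and the sources used here do not say how many plants went into each. RNA was extracted from whole roots, so that fewer cells of a type and less RNA per cell cannot be told apart.

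The family takes its name from TEOSINTE BRANCHED 1 of maize, CYCLOIDEA of snapdragon and the PCF proteins of rice. Class I members, the PCF type, are mostly known to promote cell division and growth. Class II members of the CIN type, named after CINCINNATA of snapdragon, end cell division and promote maturation in leaves, and in Arabidopsis TCP2, TCP3, TCP4, TCP10 and TCP24 are targets of the microRNA miR319. Class II members of the CYC/TB1 type restrain axillary buds or shape flowers. In Arabidopsis roots the class I protein TCP20 takes part in the response to nitrate, together with the nitrate regulators NLP6 and NLP7.

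Each name below is that of a cluster's closest Swiss-Prot protein, almost all of them Arabidopsis proteins. By these names 35 clusters were class I, 47 were of the CIN type, 2 were of the CYC/TB1 type and 11 were not classed. The label held for 84 clusters, whose best Swiss-Prot hit was one of 15 TCP or CYCLOIDEA proteins. Of the other 11, 10 hit a protein of another kind (invertase, sigma factor, cytochrome P450 or G-patch protein) and 1 had no hit, and 4 of these 11 had a TCP protein as their best hit in the NR protein database. TCP13 was the commonest name, with 26 clusters, followed by TCP20 with 11 and TCP4 with 8. Best hits in Swiss-Prot and NR can differ within a class: the TCP19 cluster had sesame TCP9 as its best NR protein, and the TCP24 clusters had a sesame TCP2-like protein. A name therefore marks the nearest database protein and not a settled ortholog.

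The regulators summed to between 1092183 and 1340255 counts per library, within whole libraries of 18619728 to 23343050 fragments recovered from counts and FPKM. Their share of the whole library was 6.48% ± 0.036 in control and 5.37% ± 0.152 in cadmium (SD, n = 3 each). CPM are counts per 1000000 of these regulator counts after TMM scaling, a method that sets the typical cluster equal between libraries. On the scale of whole libraries the median log2 fold change of all tested clusters lay 0.35 lower, and results that depend on this choice are given on both scales. Of root regulators, LATERAL ROOT PRIMORDIUM 1 stood at a summed 53.9 to 56.4 FPKM in control and 41.2 to 58.6 FPKM in cadmium, and SHORT-ROOT at 29.5 to 34.2 and 17.3 to 23.4 FPKM. Others were higher in cadmium: SCARECROW stood at 4.09 to 6.47 FPKM in control and 6.68 to 8.8 FPKM in cadmium, and BBM1 (BABY BOOM) at 0.11 to 0.58 and 1.03 to 3.23 FPKM. These FPKM, too, are on the scale of whole libraries. Of shoot regulators, YABBY 2 reached at most 0.5 FPKM and MUTE at most 0.84 FPKM, while clusters named GLK1 stood at 86.8 to 96.1 FPKM in control and 50.5 to 54.3 FPKM in cadmium.

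The comparison asked which TCP genes differ in transcript level in roots under cadmium. Members moved in opposite directions: 3 of 7 tested TCP20 clusters and 2 of 4 tested TCP14 clusters fell. Of other names 1 cluster each of TCP19, TCP23, TCP24, TCP9 and TCP10 and 2 of TCP13 rose, while further tested clusters of TCP23, TCP24, TCP9 and TCP13 did not pass. Of the 54 tested clusters 15 passed, 8 higher and 7 lower in cadmium, or 27.8%, where 30.5% of all 4844 tested regulators passed, 15.8% higher and 14.6% lower (edgeR quasi-likelihood fit, Benjamini-Hochberg adjusted p under 0.05 over all regulators). The family's share of changed clusters was thus near the background. Its median log2 fold change was −0.02, beside −0.08 over all regulators. At least 2-fold changes were called for 5 clusters higher and 5 lower, together 18.5% of the 54, beside 21.3% of all regulators (10.7% higher and 10.6% lower). Scaled to whole libraries, 7 TCP clusters were higher and 12 lower, where 34% of all regulators passed, 10.9% higher and 23.1% lower, and the family median was −0.32. Without the 11 clusters that do not have a TCP or CYCLOIDEA hit, 7 of 47 were higher and 5 lower.

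**Figure D1:**
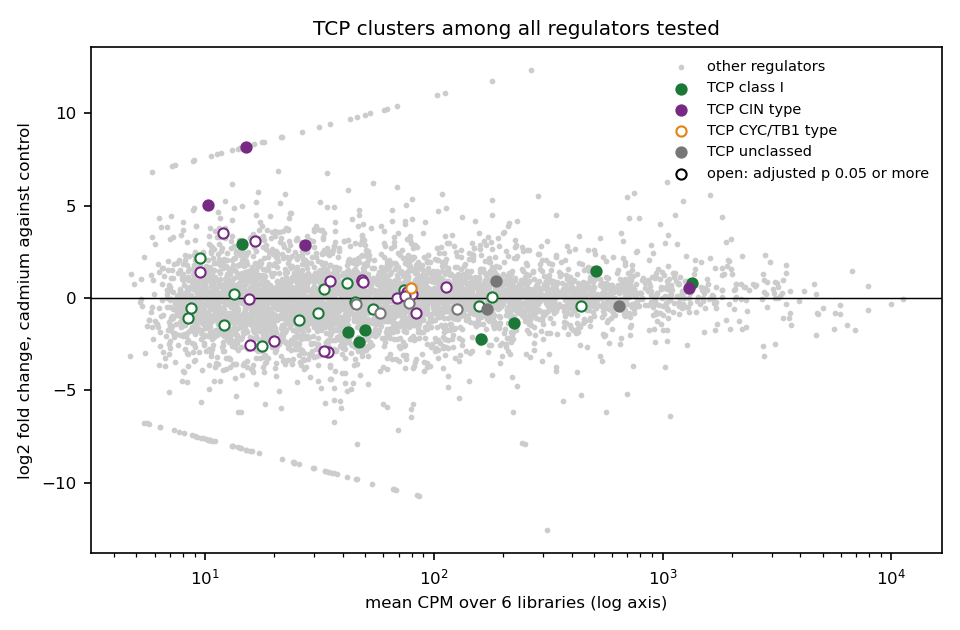
Log2 fold change of cadmium against control (vertical axis) against the mean CPM over the 6 libraries (horizontal log axis) for all 4844 tested regulator clusters (grey), with TCP clusters coloured by class, filled where the adjusted p was under 0.05 and open otherwise. TCP clusters lie on both sides of 0, with 8 filled above and 7 below, and the filled point at the top left is the TCP13 cluster that had no count in any control library.

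TCP20, the class I protein known from nitrate responses in Arabidopsis roots, had 3 clusters lower and none higher of 7 tested. Cluster-9033.123054, the most abundant of them in CPM, stood at 279.6, 239.9 and 274 CPM in the control libraries and 64.5, 38.8 and 66.6 CPM in the cadmium libraries. Every cadmium library lay below every control library. The log2 fold change was −2.22 ± 0.24 (SE, n = 3 per group, edgeR, adjusted p = 0.00125). Cluster-9033.81427 stood at 96.1, 65.6 and 76.6 CPM in the control libraries and 16.8, 13.9 and 14.5 CPM in the cadmium libraries, a log2 fold change of −2.39 ± 0.30 (edgeR, adjusted p = 0.00221). Cluster-9033.81428 stood at 82.4, 82.4 and 66.2 CPM in the control libraries and 21.8, 19.4 and 28.2 CPM in the cadmium libraries, a log2 fold change of −1.73 ± 0.29 (edgeR, adjusted p = 0.00645). In both of these clusters the groups were again fully apart. The other 4 tested TCP20 clusters did not pass, with log2 fold changes between −2.59 and 0.22. With whole-library totals the 3 fold changes were −2.57, −2.74 and −2.08, and the calls held without any one of the 6 libraries.

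TCP14, a class I protein that in Arabidopsis promotes growth in germinating embryos and in stems and is bound by DELLA proteins, had 2 clusters lower and none higher of 4 tested. Cluster-9033.60667 stood at 371, 309 and 290.4 CPM in the control libraries and 133, 142 and 100.0 CPM in the cadmium libraries. The highest cadmium library was under the lowest control library by a wide margin, and the log2 fold change was −1.37 ± 0.18 (edgeR, adjusted p = 0.00278). Its best NR protein is a sesame TCP15-like protein, so the nearest protein is TCP14 in one database and TCP15 in the other. The shorter Cluster-9033.64508 stood at 67.2, 66.4 and 64.6 CPM in the control libraries and 11.7, 16.6 and 26.5 CPM in the cadmium libraries, a log2 fold change of −1.85 ± 0.39 (edgeR, adjusted p = 0.0146). That call ended without control replicate 1 or without cadmium replicate 2 (highest adjusted p = 0.0565). The 2 tested clusters named TCP15, a close relative of TCP14, did not pass and differed in sign. The more abundant of them, Cluster-9033.145733, stood at 75.1, 46.4 and 65.4 CPM in the control libraries and 83.8, 90.6 and 81.2 CPM in the cadmium libraries (log2 fold change 0.45 ± 0.25, edgeR, adjusted p = 0.235).

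Other class I clusters rose. The only TCP19 cluster, Cluster-9033.127298, stood at 229.8, 325 and 274 CPM in the control libraries and 729, 749 and 775 CPM in the cadmium libraries. Cadmium libraries were close to each other and all above the control libraries. The log2 fold change was 1.44 ± 0.14 (edgeR, adjusted p = 0.000857), the smallest adjusted p among the TCP clusters, or 1.10 with whole-library totals. TCP19 is known from nitrogen-dependent branching in rice and from leaf ageing in Arabidopsis. TCP23 Cluster-9033.77628, the most abundant TCP cluster per length, stood at 999, 982 and 958 CPM in the control libraries and 1668, 1568 and 1921 CPM in the cadmium libraries. The groups did not overlap, and the log2 fold change was 0.81 ± 0.09 (edgeR, adjusted p = 0.00134), smaller on the whole-library scale (0.46, adjusted p = 0.0111). The other tested TCP23 cluster, Cluster-9033.33537, had overlapping groups, at 174, 219.9 and 135 CPM in the control libraries and 180.1, 181 and 185 CPM in the cadmium libraries (log2 fold change 0.05 ± 0.20, edgeR, adjusted p = 0.892). TCP9 Cluster-9033.6484, a low cluster of 517 bases, stood at 4.34, 2.4 and 3.19 CPM in the control libraries and 18.4, 24 and 34.2 CPM in the cadmium libraries. Its log2 fold change was 2.91 ± 0.57 (edgeR, adjusted p = 0.0115), a call that ended without cadmium replicate 3 (adjusted p = 0.0512). TCP9 and TCP8 act in Arabidopsis on ICS1, a gene of salicylic acid synthesis.

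TCP8 did not show a clear change by cluster. None of its 5 tested clusters passed, and fold changes were negative for 3 and positive for 2. The 2 positive ones, of 1536 and 1553 bases, had log2 fold changes of 0.47 ± 0.37 and 0.84 ± 0.33 (edgeR, adjusted p = 0.392 and 0.11). They are given after their values were seen. The most abundant TCP8 cluster, Cluster-9033.90256, stood at 530.3, 529 and 469.9 CPM in the control libraries and 439, 369.8 and 309 CPM in the cadmium libraries. The cadmium libraries were all lower, but the log2 fold change of −0.45 ± 0.15 did not pass (edgeR, adjusted p = 0.0632). With whole-library totals it did (−0.80, adjusted p = 0.00657). The only TCP11 cluster was low and variable, at 2.17, 23.2 and 27.9 CPM in the control libraries and 8.38, 8.32 and 2.56 CPM in the cadmium libraries (edgeR, adjusted p = 0.335).

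Of the CIN type, 22 clusters were tested and 4 passed, all higher, or 18.2% beside the 30.5% of all regulators. The 18 others did not pass, among them 3 TCP4 clusters with large negative fold changes that are given below. TCP24 Cluster-9033.53000, the most abundant of this class, stood at 985, 1308 and 921 CPM in the control libraries and 1491, 1442 and 1705 CPM in the cadmium libraries. The groups did not overlap, and the log2 fold change was 0.53 ± 0.15 (edgeR, adjusted p = 0.0422). Scaled to whole libraries the log2 fold change was 0.18 and missed the threshold (edgeR, adjusted p = 0.367). Of the 6 libraries, only control replicate 2 could be left out without loss of the call (highest adjusted p = 0.131). The other 3 tested TCP24 clusters did not pass and had overlapping groups, with log2 fold changes between −2.56 and 0.0048. TCP10 Cluster-9033.1082 stood at 5.78, 9.6 and 3.99 CPM in the control libraries and 67, 45.3 and 31.6 CPM in the cadmium libraries. It was low in every control library, and its log2 fold change was 2.88 ± 0.54 (edgeR, adjusted p = 0.00962) or 2.53 with whole-library totals.

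TCP13, which in Arabidopsis belongs with TCP5 and TCP17 to the CIN members that miR319 does not target, had 2 clusters higher of 6 tested. Cluster-13430.0 had no count in any control library and stood at 34.3, 28.7 and 27.3 CPM in the cadmium libraries (edgeR, adjusted p = 0.00461). It was at least 39-fold higher in cadmium, against a floor of 3 counts over the control group, a bound that covers counting error only. Cluster-9033.160647 stood at 1.45, 0 and 0 CPM in the control libraries and 26, 12 and 22.2 CPM in the cadmium libraries (edgeR, adjusted p = 0.0231). That call rested on few counts, and only control replicate 1 could be left out without loss of it (highest adjusted p = 0.0819). Both clusters passed the filter on low counts only through the cadmium libraries. With so few control counts, neither could have been tested unless it was high in cadmium. The TCP9 and TCP10 clusters that rose passed the filter in the same way. The most abundant TCP13 cluster, Cluster-9033.7799, stood at 80.9, 112 and 73.4 CPM in the control libraries and 148, 141 and 120.5 CPM in the cadmium libraries. The groups were apart, but its log2 fold change of 0.62 ± 0.22 did not pass (edgeR, adjusted p = 0.0812).

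No cluster named TCP2 or TCP4 passed on its own, of 4 and 7 tested. The most abundant TCP2 cluster, Cluster-9033.136146, stood at 27.5, 81.6 and 92.5 CPM in the control libraries and 82.9, 90.6 and 81.2 CPM in the cadmium libraries, with control replicate 1 alone low. The most abundant TCP4 cluster, Cluster-9033.18732, stood at 72.3, 84.8 and 67.8 CPM in the control libraries and 67, 91.5 and 99.1 CPM in the cadmium libraries, with overlapping groups. TCP4 Cluster-9033.141243, Cluster-9033.143624 and Cluster-9033.143625 had every cadmium library below every control library. Their log2 fold changes were −2.91 ± 1.15, −2.89 ± 1.15 and −2.34 ± 0.74 (edgeR, adjusted p = 0.109, 0.111 and 0.0592, each under 0.05 before adjustment). They passed the filter on low counts only through the control libraries, and could not have been tested unless they were high there. These 3 are named after their values were seen. The only tested member of the CYC/TB1 type, TCP12 (BRANCHED2 of Arabidopsis, a repressor of axillary buds), stood at 67.2, 76.8 and 49.5 CPM in the control libraries and 90.5, 98.9 and 92.3 CPM in the cadmium libraries (log2 fold change 0.54 ± 0.24, edgeR, adjusted p = 0.137). CYCLOIDEA, known from flower symmetry, had at most 7.18 CPM in any library and was not tested.

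Of the 11 clusters that were not classed 7 were tested, and 1 rose and 2 fell, or 42.9% beside the 30.5% of all regulators. Cluster-9033.33536, with an invertase as its Swiss-Prot hit and sesame TCP23 as its NR hit, stood at 122, 127 and 136 CPM in the control libraries and 255, 235 and 239 CPM in the cadmium libraries (log2 fold change 0.92 ± 0.12, edgeR, adjusted p = 0.00232), or 0.57 with whole-library totals. Cluster-9033.122671, of 5681 bases and also listed in the sigma factor family, stood at 761, 748 and 699.6 CPM in the control libraries and 570.4, 559 and 518 CPM in the cadmium libraries (log2 fold change −0.42 ± 0.08, edgeR, adjusted p = 0.00937). Cluster-9033.51339, with a cytochrome P450 hit, stood at 194, 211 and 203 CPM in the control libraries and 116, 145 and 150.4 CPM in the cadmium libraries (edgeR, adjusted p = 0.0314). Leaving out any one of the 6 libraries lost that call (highest adjusted p = 0.0973). A G-patch hit, Cluster-9033.111287, ranged from 15.2 to 149.6 CPM within the control group alone and did not pass. How much of the reads of such long clusters came from the TCP stretch cannot be told from a count per cluster.

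**Figure D2:**
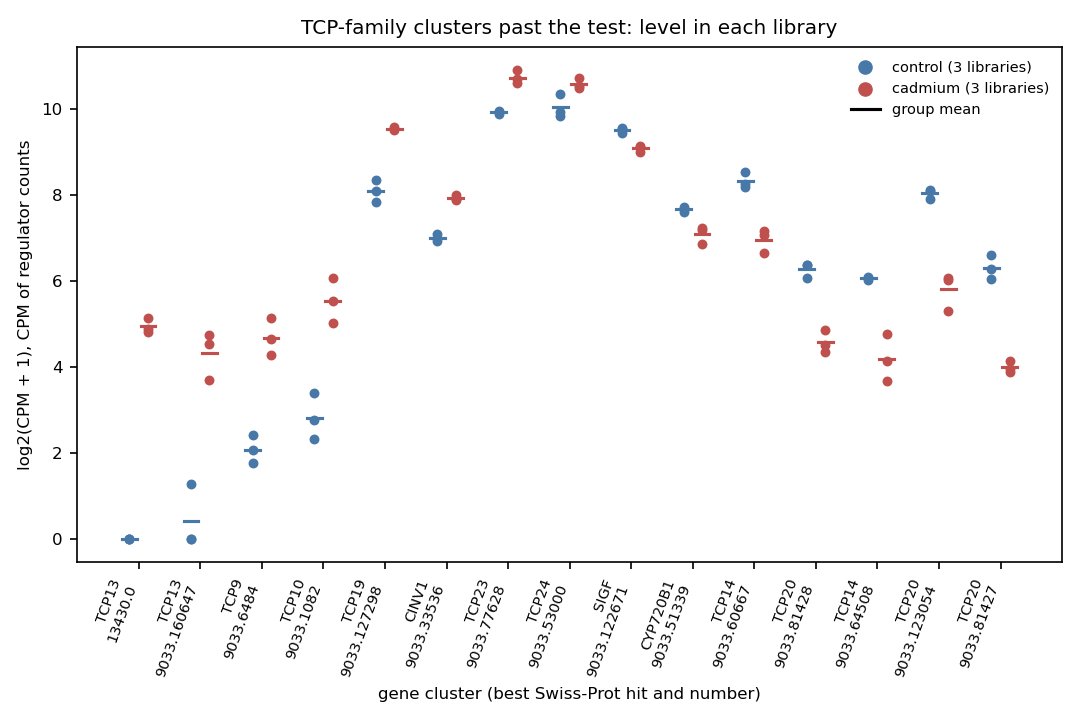
Level of the 15 TCP-family clusters past the test, as log2(CPM + 1), in each of the 3 control (blue) and 3 cadmium (red) libraries, with bars at the group means and clusters ordered by fold change. The groups do not overlap in any of them, and the TCP20 and TCP14 clusters at the right are lower in cadmium.

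Over all tested TCP clusters, 16 had every cadmium library above every control library and 18 had every one below, so that groups did not overlap in 34 of 54. Among all tested regulators 53.5% did not overlap, 25.6% with cadmium higher and 27.9% with cadmium lower. The authors' deposited table called 19 TCP clusters at a q-value under 0.05, 9 higher and 10 lower, and 13 of these passed here as well. How many of all regulators the authors called at that threshold is not given here, so the 19 have no background beside them.

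Many clusters of this family share a name: 26 carry the name TCP13, and of these 4 had no count and 5 had counts in 1 library only. How alike their sequences are was not measured here, and reads of like clusters could be split by the counting. Counts were therefore also summed over clusters that share their best NR protein, which gave 30 proteins for the 95 clusters, 25 of them tested. Of these 18 passed, 9 higher and 9 lower, or 72.0%, where 60.3% of all 2070 regulator proteins passed in the same fit, 30.4% higher and 29.9% lower. Among them, 25 proteins take in at least 1 cluster with a TCP or CYCLOIDEA name, of which 21 were tested and 9 were higher and 7 lower. The other 2 lower proteins are a sigma factor and an oxidase with a cytochrome P450 hit. Scaled to whole libraries, 6 of 24 tested were higher and 11 lower, where 66.5% of all regulator proteins passed, 20.9% higher and 45.6% lower. No sum took in a cluster from outside the family.

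In these sums TCP20 fell in 3 of the 4 NR proteins that bear the name. The 2 sesame proteins hold the 3 TCP20 clusters that passed on their own, so their falls are no added support. The sesame TCP20-like protein (2 clusters) summed to 315, 267 and 303 CPM in the control libraries and 64.5, 44.4 and 76 CPM in the cadmium libraries, a log2 fold change of −2.25 ± 0.19 (edgeR, adjusted p = 8.53e-06). The sesame TCP20 protein (4 clusters) summed to 185, 159.9 and 147 CPM in the control libraries and 51.1, 68.4 and 50.4 CPM in the cadmium libraries, a log2 fold change of −1.53 ± 0.18 (edgeR, adjusted p = 7.92e-05). Both were lower in each cadmium library than in any control library, and both passed without any one library. The soybean TCP20-like protein (2 clusters) summed to 55.6, 50.4 and 35.1 CPM in the control libraries and 16.8, 32.4 and 14.5 CPM in the cadmium libraries (log2 fold change −1.15 ± 0.39, edgeR, adjusted p = 0.0281), a call lost without control replicate 1 or 2 or cadmium replicate 1 or 3 (highest adjusted p = 0.0921). The fourth, a low cacao protein annotated Teosinte branched 1 (3 clusters), had overlapping groups (edgeR, adjusted p = 0.6).

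TCP4, a CIN protein that drives cells out of division in Arabidopsis leaves, split by NR protein. The sesame TCP4 protein (5 clusters) summed to 168, 194 and 143 CPM in the control libraries and 26, 40.7 and 46.1 CPM in the cadmium libraries. Even the highest cadmium library lay far below the lowest control library, and the log2 fold change was −2.16 ± 0.23 (edgeR, adjusted p = 4.13e-05). The sesame TCP4-like protein (3 clusters) summed to 188, 184 and 172 CPM in the control libraries and 221, 195 and 267 CPM in the cadmium libraries, higher in every cadmium library but not past the test (log2 fold change 0.33 ± 0.14, edgeR, adjusted p = 0.0638). With whole-library totals these values were −2.50 and −0.02. The difference between the 2 proteins was not itself tested. The sum over all 8 clusters with the Swiss-Prot name TCP4 was lower in cadmium (log2 fold change −0.39 ± 0.13, edgeR, adjusted p = 0.0366). Of the 7 tested TCP4 clusters, 4 had negative and 3 had positive fold changes.

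TCP13 rose in the NR protein that takes in most of its clusters. The 23 clusters that share a tomato TCP5 protein summed to 26, 52 and 24.7 CPM in the control libraries and 223, 213 and 170.0 CPM in the cadmium libraries, a log2 fold change of 2.57 ± 0.27 (edgeR, adjusted p = 3.92e-05), or 2.22 with whole-library totals. Of these 23 clusters, 4, 7 and 6 had counts in the control libraries and 13, 11 and 10 in the cadmium libraries. The sesame TCP5-like protein holds only Cluster-9033.7799, so nothing was summed there. Its counts, which had not passed in the fit of clusters (edgeR, adjusted p = 0.0812), passed in this fit of fewer rows (0.62 ± 0.19, edgeR, adjusted p = 0.018). That is the same data tested again and no added support. On the whole-library scale it did not pass (0.27, edgeR, adjusted p = 0.216). That call was also lost without control replicate 1 or 3 or cadmium replicate 1 or 2 (highest adjusted p = 0.069).

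TCP10 (2 clusters) and TCP9 (2 clusters) rose from low levels. In neither sum did the control libraries alone meet the filter on low counts, so each could be tested only through its cadmium libraries. TCP10 summed to 8.67, 16.8 and 5.58 CPM in the control libraries and 67.8, 46.2 and 35.9 CPM in the cadmium libraries (log2 fold change 2.27 ± 0.47, edgeR, adjusted p = 0.00236). TCP9 summed to 6.5, 8.8 and 4.79 CPM in the control libraries and 39.4, 38.8 and 45.3 CPM in the cadmium libraries (log2 fold change 2.61 ± 0.38, edgeR, adjusted p = 0.000305). TCP2, under a tomato TCP24 protein with 5 clusters, summed to 143, 169 and 159 CPM in the control libraries and 253, 240.4 and 286 CPM in the cadmium libraries. All cadmium libraries were higher, with a log2 fold change of 0.73 ± 0.12 (edgeR, adjusted p = 0.0007), or 0.38 with whole-library totals (adjusted p = 0.0215).

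The 7 clusters under sesame TCP23, the 3 with an invertase hit among them, summed to 1317, 1329 and 1229 CPM in the control libraries and 2103, 1984 and 2438 CPM in the cadmium libraries (log2 fold change 0.76 ± 0.09, edgeR, adjusted p = 7.92e-05), or 0.40 with whole-library totals. The 6 clusters named TCP14 or TCP15 that share an Erythranthe TCP14-like protein summed to 86, 83.2 and 81.4 CPM in the control libraries and 30.2, 37 and 41 CPM in the cadmium libraries (log2 fold change −1.21 ± 0.21, edgeR, adjusted p = 0.001). TCP24 and TCP12 passed on the regulator scale, at 0.41 ± 0.11 (edgeR, adjusted p = 0.0127) and 0.54 ± 0.20 (edgeR, adjusted p = 0.0435). Neither passed on the whole-library scale, where their log2 fold changes were 0.06 and 0.20 (edgeR, adjusted p = 0.672 and 0.418). The TCP24 call was also lost without control replicate 3 (adjusted p = 0.0578), and the TCP12 call without any library but control replicate 2 (highest adjusted p = 0.125). The TCP12 protein holds only 1 cluster, whose same counts had not passed in the fit of clusters (edgeR, adjusted p = 0.137). The TCP8 sum (5 clusters, 2 of them with positive fold changes) fell by a small amount (−0.30 ± 0.11, edgeR, adjusted p = 0.0432), with overlapping groups. That call was lost without control replicate 1 or 2 or cadmium replicate 2 or 3 (highest adjusted p = 0.15). On the whole-library scale the TCP8 sum had a log2 fold change of −0.66 (edgeR, adjusted p = 0.000521).

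**Figure D3:**
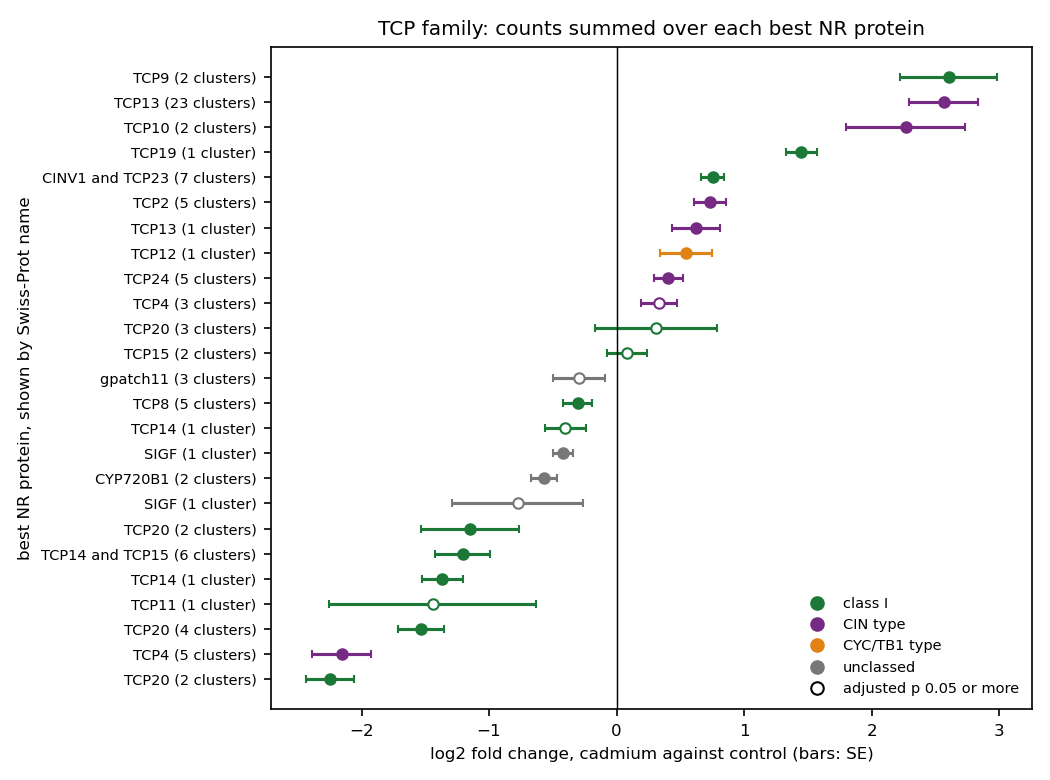
Log2 fold change of cadmium against control with its SE (horizontal axis) for the 25 tested proteins of the TCP-family clusters, each the sum of the clusters that share a best NR protein, shown by Swiss-Prot name and coloured by class, open where the adjusted p was 0.05 or more. Class I proteins lie at both ends, with TCP9 and TCP19 above 0 and those TCP20 and TCP14 proteins that passed the test below, and TCP4 is the only CIN protein past the test below 0.

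The family as a whole changed little in amount, and the sign depended on the scale. All 95 clusters summed to 6738, 7122 and 6472 CPM in the control libraries and 7675, 7427 and 8109 CPM in the cadmium libraries (p = 0.1 in an exact permutation test, two-sided, which is the lowest p that 3 against 3 allow). Per 1000000 fragments of the whole library the sums were 454, 464 and 436 in control and 393, 394 and 428 in cadmium, now with every cadmium library lower (exact permutation test, p = 0.1). Class I summed to 3353 ± 139.7 CPM in control and 3830.1 ± 190.1 CPM in cadmium (SD, n = 3), and its sign turned in the same way. The CIN type summed to 1921 ± 249.5 and 2606 ± 203 CPM (exact permutation test, p = 0.1), and per whole library its groups overlapped (exact permutation test, p = 0.5). The CYC/TB1 type summed to 67.1 ± 10.5 and 96.2 ± 4.76 CPM, and its groups also overlapped per whole library (exact permutation test, p = 0.3). The clusters not classed were lower on both scales, at 1437 ± 38.6 and 1205 ± 38.2 CPM. Adjusted over the 4 classes (Benjamini-Hochberg), the permutation p on the CPM scale was 0.1 for each class.

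The make-up of the family does not depend on the scale between libraries, since each name is taken as a share of the summed FPKM (counts per length and depth) of the 84 TCP-named clusters. Class I took 79.3%, 74.7% and 77.5% in the control libraries and 71.2%, 69.6% and 68.3% in the cadmium libraries, and the CIN type took most of the rest. Short clusters weigh more in FPKM than in counts, and class I holds such clusters (TCP8 of 387 and 402 bases, TCP20 of 452 bases). By counts class I led by less, with 3353 CPM in control and 3830 CPM in cadmium beside 1921 and 2606 CPM for the CIN type. TCP20 took 14.6% ± 0.996 (SD, n = 3) in control and 5.61% ± 0.644 in cadmium. TCP14 took 9.94% ± 0.948 and 5.27% ± 0.489, and TCP8 took 31.8% ± 1.7 and 22.6% ± 3.27. These 3 names were each lower in share in every cadmium library. TCP23 took 15.5% ± 0.523 in control and 23.5% ± 2.0 in cadmium, and TCP19 took 3.49% ± 0.60 and 8.62% ± 0.407. TCP13 took 2.26% ± 0.61 and 5.81% ± 0.74. TCP24 took 14.1% ± 1.45 and 17% ± 1.72, with overlapping groups. These shares are a description with no test, and a lower share shows unequal change, not an absolute fall.

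**Figure D4:**
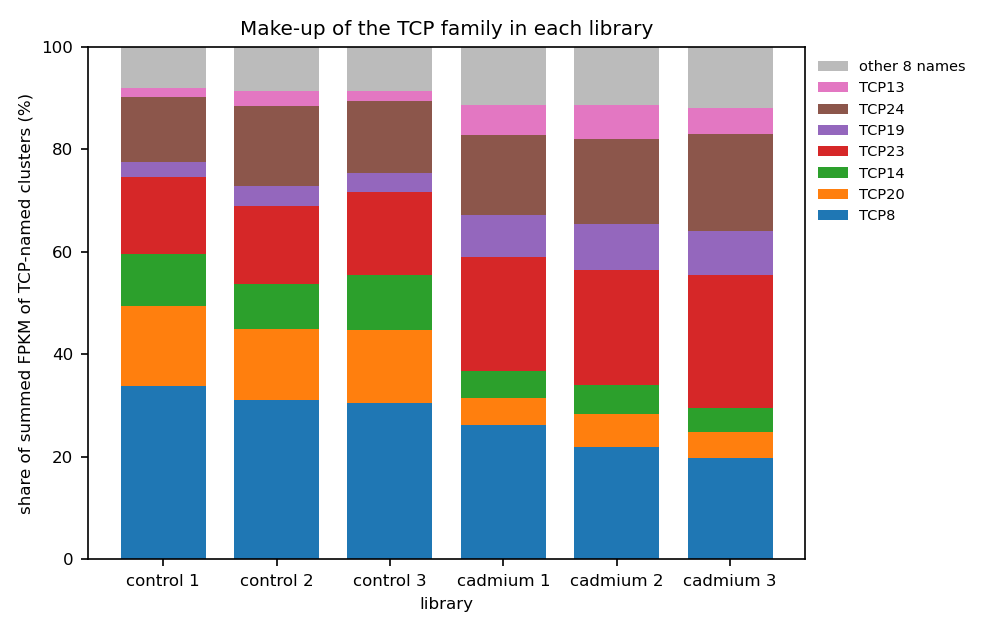
Share of the summed FPKM of the 84 TCP-named clusters (vertical axis, percent) taken by each Swiss-Prot name in the 3 control and 3 cadmium libraries, with 8 other names together in grey. TCP8, TCP20 and TCP14 together hold 53.7% to 59.5% in the control libraries and 29.6% to 36.8% in the cadmium libraries. Short clusters weigh more in these shares than they do in counts.

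In order of level per length, summed over clusters of a name, TCP8 stood first in control at 101 ± 11.1 FPKM (SD, n = 3) and stood second in cadmium at 61.8 ± 8.51 FPKM. The largest part of the TCP8 sum came from Cluster-9033.90256 of 876 bases, at 52.4 FPKM in control and 30.3 FPKM in cadmium. Its 2 clusters of 387 and 402 bases, whose FPKM are raised by their short length, stood at 20.3 and 24.9 FPKM in control and 14.3 and 13.5 FPKM in cadmium. TCP23 stood at 48.9 ± 1.65 FPKM in control and 64.6 ± 7.35 FPKM in cadmium, where TCP23 and TCP8 were within their spread of each other. In control, TCP23, TCP20 (46.1 ± 5.12) and TCP24 (44.4 ± 5.41 FPKM) were likewise within their spread. In cadmium TCP24 stood at 46.7 ± 5.88 FPKM, followed by TCP19 at 23.6 ± 1.15, which in control had been at 11 ± 1.72 FPKM. TCP13 (15.9 ± 1.55), TCP20 (15.3 ± 1.3) and TCP14 (14.4 ± 0.896 FPKM) came next in cadmium and were within their spread. CYCLOIDEA and TCP11 stood lowest, each under 0.5 FPKM on average in both groups.

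Genes outside the family that are known in Arabidopsis as partners or targets of TCP proteins were read from the same fit. Of 114 such clusters 65 were tested, and 5 were higher and 8 lower in cadmium, or 20.0% beside the 30.5% of all regulators, with a median log2 fold change of 0.09. The nitrate regulators NLP6 and NLP7 are partners of TCP20. Of 14 tested NLP6 clusters 3 passed, all higher, and of 7 tested NLP7 clusters 2 passed, both lower. Counting all tested clusters, fold changes were positive for 10 of the 14 NLP6 clusters and for 4 of the 7 NLP7 clusters, and the difference between the names was not tested. NLP6 Cluster-9033.95823 stood at 15.9, 21.6 and 21.5 CPM in the control libraries and 55.3, 53.6 and 59 CPM in the cadmium libraries (log2 fold change 1.50 ± 0.31, edgeR, adjusted p = 0.0134). NLP7 Cluster-9033.65846 stood at 285, 292 and 333 CPM in the control libraries and 91.3, 129 and 136 CPM in the cadmium libraries (log2 fold change −1.36 ± 0.19, edgeR, adjusted p = 0.00303). DELLA proteins, gibberellin-response repressors that bind TCP14, had 3 clusters lower and none higher of 16 tested. Their cluster with the smallest adjusted p, GAIP Cluster-9033.15456, stood at 66.5, 69.6 and 73.4 CPM in the control libraries and 15.1, 9.24 and 8.54 CPM in the cadmium libraries (log2 fold change −2.66 ± 0.36, edgeR, adjusted p = 0.00285). ATHB-40, a target of the bud repressor BRANCHED1, stood at 20.2, 33.6 and 39.9 CPM in the control libraries and 82.1, 148 and 124 CPM in the cadmium libraries (log2 fold change 1.91 ± 0.37, edgeR, adjusted p = 0.0107). These 4 clusters kept their direction and their call with whole-library totals (1.16, −1.70, −3.01 and 1.57) and without any one library. Of all 13 partner and target calls, 6 held without any one library and 12 with whole-library totals, and the other changed NLP6 and NLP7 clusters were not among the 6. The only cluster named LBD6 (LOB domain-containing protein 6), put in the list under Asymmetric Leaves 2 of Arabidopsis, was lower (log2 fold change −2.07 ± 0.58, edgeR, adjusted p = 0.0409), a call lost whichever of the 6 libraries was left out. It is named after its values were seen. Of 15 tested growth-regulating factors, which in Arabidopsis leaves lie downstream of TCP4 through a microRNA, 1 was higher and 2 were lower. None of the 3 tested clusters of the clock gene LHY, the 4 of CUP-SHAPED COTYLEDON and the 4 of SPL9 passed (edgeR), with 1, 1 and 0 at an unadjusted p under 0.05. No cluster of the clock gene CCA1 was tested.

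Of the list of 46 root regulator clusters, 43 had counts, and of 22 tested 3 were higher and 3 lower, or 27.3% beside the 30.5% of all regulators. The list summed to 132.6 to 142.7 FPKM in control and 92.7 to 124.3 FPKM in cadmium, on the whole-library scale that places the median regulator 0.35 lower in log2. On the CPM scale the most abundant LATERAL ROOT PRIMORDIUM 1 cluster was higher (log2 fold change 0.76 ± 0.13, edgeR, adjusted p = 0.00686). The most abundant SHORT-ROOT cluster did not pass (−0.11 ± 0.12, edgeR, adjusted p = 0.548). With whole-library totals the 2 values were 0.42 and −0.45 (edgeR, adjusted p = 0.0658 and 0.033). WEREWOLF, a regulator of hairless epidermal cells, summed to 36.7 to 46.5 FPKM in control and 18.1 to 20.8 FPKM in cadmium, and of its 5 tested clusters 3 were lower and 1 was higher. The root tip regulators PLT1, PLT2 and WOX5 summed to 0.17 to 0.81, 0.48 to 1.0 and 0.090 to 0.49 FPKM in control and 1.59 to 3.57, 1.97 to 4.59 and 1.15 to 1.87 FPKM in cadmium. Of these the only tested PLT2 cluster was higher, the 2 tested PLT1 clusters did not pass, and no WOX5 cluster was tested. The part of these levels in the TCP results was not tested.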

How the data were processed

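Estimated counts of reads per gene cluster and library, not scaled to depth, were taken as deposited by the authors and rounded to whole numbers. The authors also deposited FPKM per cluster, as its file header names them. The authors' deposited log2 ratio and q-value of cadmium against control are used only where named. Cluster length, in bases, is from the same deposited table. Bowtie2 2.0.6 and TopHat2 2.0.12 are named in the submitters' processing notes, without their role. The counting tool, any assembly and the use of strand were not given in the sources used here.

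All regulators were fitted together in edgeR 4.0.16 (R 4.3.3): filterByExpr with a minimum count of 10 and total of 15, TMM, the quasi-likelihood test between groups with no covariate, and adjustment by Benjamini-Hochberg. SE is the log2 fold change over the square root of F. Whole-library totals came from count over FPKM against length. The fit was tested on simulated counts. Python 3.11.15, scipy 1.17.1 and matplotlib 3.10.9 did the rest.

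Members and lists were chosen with earlier results of these data known. Clusters named with values are those past the test, the 10 most abundant, the most abundant under each name, those at 0 in 1 group, and up to 2 higher and 2 lower partners. The sums over NR proteins were set as an alternative, and all 25 tested are plotted. TMM was tried against RLE and whole-library totals, edgeR against DESeq2 1.42.0 and limma 3.58.1 (log2(FPKM + 1) and log2(FPKM + 0.1)), and the filter against none and against 5 CPM in 3 libraries. The p-values measure the spread between these libraries. Sequences of the clusters were not used here.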

Additional observations from a re-analysis of the deposited data

How the results depend on the processing

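The 15 TCP clusters called became 26 with DESeq2 (13 higher, 13 lower), 27 with limma on log2(FPKM + 1) (9 higher, 18 lower), 26 with limma on log2(FPKM + 0.1) (10 higher, 16 lower) and 9 with the replicate number as a block. All regulators called went from 1476 of 4844 to 2094 with DESeq2 (1053 higher, 1041 lower), 2149 (707 higher, 1442 lower) and 2041 (662 higher, 1379 lower) with limma and 886 with the block. Summed over Swiss-Prot hits, 850 of 1502 proteins were called. Same-numbered libraries did not deviate together (correlations of 0.00466, 0.0292 and −0.00377), so the numbers give no evidence of pairing. Leaving out 1 library each gave 11 to 15 TCP clusters and 1136 to 1210 regulators. The family median of −0.02 moved to −0.32 with whole-library totals, 0.24 without the filter, −0.24 and −0.28 with limma on log2(FPKM + 1) and log2(FPKM + 0.1), 0.25 after Swiss-Prot sums, −0.30 after NR sums and 0.12 over TCP-named members, and lay between −0.051 and 0.38 with 1 library left out. On whole-library totals the log2 ratio of the summed family turned from 0.19 to −0.16, and that of class I from 0.19 to −0.16. TCP4 Cluster-9033.18732 went from 0.20 to −0.39 after Swiss-Prot sums. Over the other settings of the 24 tested clusters named by rule, 335 values kept their side of the threshold, 32 lost the call, 15 gained one and 1 changed sign. Calls on NR sums numbered 15 to 18 of 25 in each setting tried (17 of 24 on whole-library totals). The settings tried on NR sums were added after the data were seen, as was the restriction to TCP-named members. Low counts limit the 41 clusters that were not tested.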
